A study of Mus musculus with 2 samples.

Results

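The genes described here encode ABL and SRC family tyrosine kinases, with the BCR gene that is joined to ABL1 in human CML. They were chosen by name, as kinases of the CML signaling network and their close relatives, and are Abl1, Abl2, Bcr, Src, Fyn, Yes1, Lyn, Fgr and Lck. These are 9 of the 22911 genes that could be named on the array, and 15 of its 56604 probes were named for them through RefSeq accessions. Their expression was read in LKS+ cells from BM of WT mice, that is, lineage-negative cells with Kit and Sca-1 on their surface, a population of hematopoietic stem and progenitor cells (HSPCs). Cells propagated in culture with stem cell factor, IL-6 and IL-3 were co-cultured for 24 h with 150 μg/ml EVs from the SP of CML mice or, for comparison, from the SP of normal mice. The CML donors carried LKS+ cells infected with a BCR-ABL retrovirus and had, per the study's methods, been irradiated, which the labels do not mention. No irradiation of the normal donors is described, so that the effects of leukemia and of irradiation in these donors cannot be told apart.

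ABL kinases act in the cytoplasm and nucleus on cell growth, adhesion and the actin cytoskeleton. SRC family kinases sit at the inner side of the plasma membrane and carry signals from growth factor, antigen, Fc and integrin receptors. The kinase CSK holds SRC family kinases inactive by phosphorylating a tyrosine of their tail, and the phosphatase CD45 removes that phosphate. In CML the BCR-ABL fusion kinase is active without a ligand, and SRC family kinases such as LYN are known as its partners.

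A single array was run for each condition, both on 1 slide, so that no p-value and no replicate error could be given. Of 59305 spots, 31635 (53.3%) were well above background with CML EVs and 32269 (54.4%) with control EVs, and none was saturated. Signals are in arbitrary units, scaled per array to a mean of 2500 without the upper and lower 2% of spots. Ratios are log2 of CML EVs over control EVs. The error beside a signal is the one that the scanner software modeled for the spot, and each probe of these genes had 1 spot. Other probes were printed repeatedly, and the SD of a log2 ratio between their spots had a median of 0.05 for the 272 bright ones (log2 signal at least 8) and 0.19 for the 11 dimmer ones. Neither error covers cultures or EV preparations, and signals of different probes are not ordered here, since brightness also depends on the probe. The labeled cells showed their markers: Kit had a signal of 1529 with CML EVs and 1646 with control EVs, and Cd34 had 21996 with CML EVs and 24845 with control EVs. Ly6a, which encodes Sca-1, had 1985 with CML EVs and 1548 with control EVs, and Flt3 had 1095 with CML EVs and 1285 with control EVs. Myeloid genes were read in these cultures as well. Itgam, for the lineage marker CD11b, had 4197 with CML EVs and 4835 with control EVs by its brighter probe, a log2 ratio of -0.20. Its other probe gave 0.43, so that no direction is given for Itgam. Mpo, an early neutrophil marker, had 258638 with CML EVs and 213990 with control EVs.

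All 9 genes were well above background on both arrays by their brightest probe, and their transcripts differed little between the cultures. Src, Fyn and Abl2 were lower with CML EVs by at least 1.2-fold, none of the 9 was higher by as much, and none differed by 1.5-fold, by these probes. Abl1, Bcr, Lck, Lyn, Yes1 and Fgr lay within 1.2-fold. The median log2 ratio of the 9 was -0.06, against 0.01 over the 13411 genes well above background on both arrays. Of those 13411 genes 7.52% were at least 1.2-fold lower and 6.96% at least 1.2-fold higher, and at 1.5-fold these shares were 1.18% and 1.52%. Lower by any amount were 6 of the 9 by these probes, against 48.05% of all genes. Among the 6, Bcr and Lck each had another probe of the opposite sign. Only 4 of the 9 (Src, Fyn, Abl2 and Lck) were lower where the arrays were scaled to their medians. Src and Fyn were dim, and among the 3816 genes with a mean signal under 200, 20.7% were at least 1.2-fold lower. Abl2 was brighter, and among the 5692 genes with a mean signal of 200 to 2000, 3.34% were at least 1.2-fold lower. These signal ranges were set after the values were seen.

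**Figure D1:**
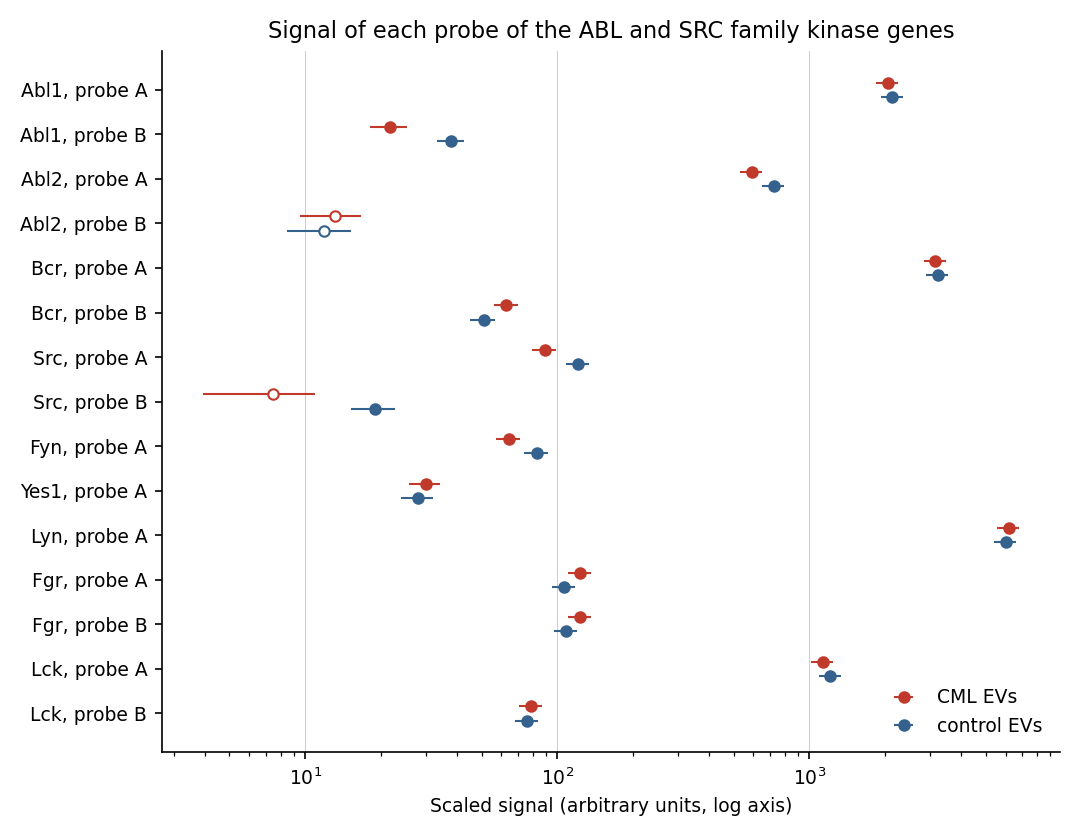
Scaled signal (arbitrary units, log axis) of each of the 15 probes of the 9 genes with CML EVs (red) and control EVs (blue), 1 array each. Bars are the scanner software's error, and open circles were not well above background. Src and Fyn, probe A, lie to the left with CML EVs beyond their bars, whereas Lyn overlaps at 6167 and 6010.

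The ABL genes had unlike ratios. Abl1, which encodes the kinase whose human counterpart is fused to BCR in CML, had a signal of 2043 ± 204 with CML EVs and 2131 ± 213 with control EVs by its brighter probe. The errors of these signals overlapped, and the log2 ratio was -0.06. A dim probe of Abl1, designed to a predicted transcript model (XM_006497621), had 21.7 ± 3.71 with CML EVs and 37.9 ± 4.78 with control EVs. This second Abl1 probe was 1.75-fold lower, with a log2 ratio of -0.81 and no overlap of the errors, so that the 2 probes of Abl1 disagreed in size, and the sign of the brighter one turned with median scaling. Among 3847 genes with 2 probes above background on both arrays, the log2 ratios of a gene's probes differed by a median of 0.10 and by over 0.5 in 3.77%. Abl2, for the close relative ARG, had a signal of 592 ± 59.3 with CML EVs and 721 ± 72.1 with control EVs. Abl2 was thus 1.22-fold lower, at a log2 ratio of -0.28, which is more than the spread between spots of bright probes, although the scanner errors overlapped. Its other probe was not well above background on either array, at 13.1 with CML EVs and 11.8 with control EVs. With a mean signal of 653, Abl2 lay lower than all but 2.81% of the genes in its signal range of 200 to 2000.

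Bcr, which encodes a kinase that also acts on small GTPases, was bright on both arrays. The brighter Bcr probe had 3159 ± 316 with CML EVs and 3229 ± 323 with control EVs, a log2 ratio of -0.03 that lies within the spread between spots. Its dim probe had 62.7 ± 6.84 with CML EVs and 50.9 ± 5.73 with control EVs, or 1.23-fold higher at a log2 ratio of 0.30, with overlapping errors. The brighter and the dimmer Bcr probe therefore differed in sign, and no direction is given for Bcr. Whether RNA of the donors' BCR-ABL reached the Abl1 or Bcr probes was not tested.

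Of the SRC family genes that many cell types express, Src and Fyn were lower with CML EVs and Yes1 was not. Src encodes the founding member of the family. It had a signal of 89.0 ± 9.39 with CML EVs and 120.9 ± 12.4 with control EVs by its brighter probe, which is 1.36-fold lower at a log2 ratio of -0.44. The errors did not overlap. Its dimmer probe was well above background with control EVs only, at 7.41 ± 3.50 with CML EVs and 18.9 ± 3.79 with control EVs. Against 13.6, the dimmest signal that still counted as well above background on the CML EV array, the probe's control EV signal was 1.39-fold higher. This is not a lower bound, since the T cell marker Tcf7 at 15.8 was not well above background on that array. Both Src probes thus had the same direction, and they were designed to the same transcript (NM_009271). Fyn, whose kinase acts in T cells and in many other tissues, had 64.0 ± 7.09 with CML EVs and 82.8 ± 8.79 with control EVs on its only probe. Fyn was 1.29-fold lower at a log2 ratio of -0.37, again without overlap of the errors. From the scanner errors of both signals, the modeled error of the log2 ratio was 0.22 for Fyn and 0.21 for the brighter Src probe. The differences of Src and Fyn exceeded the median SD between spots of dim probes, but the largest SD among those 11 probes was 0.38. Within the genes under a mean signal of 200, 7.78% had a lower ratio than Src and 11.7% a lower ratio than Fyn. Yes1, for a kinase close to SRC, was dim at 30.0 ± 4.29 with CML EVs and 28.0 ± 4.08 with control EVs. Its log2 ratio of 0.10 lay within the spread between spots.

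Because Src, Fyn and Abl2 shared their direction, the 250 bases before the RefSeq start of each are shown, with matches to promoter motifs on either strand in capitals. They are from the mouse assembly GRCm38.p6 and lie on the plus strand at chr2:157424043-157424292 for Src, chr10:39369549-39369798 for Fyn and chr1:156558537-156558786 for Abl2. The array design refers to an earlier assembly, and the probes' own positions were not used here.
Src: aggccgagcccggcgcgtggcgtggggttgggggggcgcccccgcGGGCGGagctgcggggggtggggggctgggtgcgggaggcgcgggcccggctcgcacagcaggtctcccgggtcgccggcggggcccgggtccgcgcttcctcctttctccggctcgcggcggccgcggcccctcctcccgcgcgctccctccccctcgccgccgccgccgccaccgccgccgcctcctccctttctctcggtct
Fyn: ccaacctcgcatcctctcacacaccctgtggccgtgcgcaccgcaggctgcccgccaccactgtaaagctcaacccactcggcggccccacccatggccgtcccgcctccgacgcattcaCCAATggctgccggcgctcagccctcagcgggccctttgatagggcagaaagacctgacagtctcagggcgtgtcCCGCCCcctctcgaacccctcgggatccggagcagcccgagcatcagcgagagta
Abl2: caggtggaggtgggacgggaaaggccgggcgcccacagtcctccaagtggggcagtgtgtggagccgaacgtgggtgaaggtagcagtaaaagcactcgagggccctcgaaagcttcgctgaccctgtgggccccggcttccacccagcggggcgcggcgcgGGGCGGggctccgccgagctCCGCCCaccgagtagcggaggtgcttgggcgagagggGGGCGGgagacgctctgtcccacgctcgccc

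The motifs searched were the GC box (GGGCGG), the CCAAT box (CCAAT), the TATA box (TATAAA), the core of the ETS site (CCGGAA) and the core of the interferon-stimulated response element (a pair of GAAA with any 2 bases between them). The capitals mark 1 GC box in Src, 1 GC box and 1 CCAAT box in Fyn and 3 GC boxes in Abl2. Of 32851 windows of this length, 32.7% held a GC box and 33.8% a CCAAT box. Windows were at hand for 8 of the 9 genes, with a pair each for Abl1 and Lck, and 7 of the 8 held a GC box in at least 1 window, genes that were not lower included. The gene without one was Fgr, which held an ETS core, as did Yes1, against 12.03% of all windows. None of the 10 windows held a TATA box (12.4% of all windows) or the interferon element (2.98%). The windows of Src and Bcr both had a GC content of 82.8%, that of Fyn 67.2% and that of Abl2 71.6%, against a median of 52.4% over all windows. The Lck windows had 56.4% and 58.0%. No motif overlapped another in the sequences shown.

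The SRC family genes best known from blood cells lay within 1.2-fold. Lyn, whose kinase both transmits and restrains signals in myeloid and B cells, had a signal of 6167 ± 617 with CML EVs and 6010 ± 601 with control EVs. Its log2 ratio of 0.04 was smaller than the spread between spots. Fgr, for a kinase of granulocytes and monocytes, was dim and was measured by a pair of probes for the same transcript (NM_010208). The first had 123.2 ± 12.7 with CML EVs and 106.0 ± 11.0 with control EVs, and the other 122.7 ± 12.6 with CML EVs and 108.1 ± 11.2 with control EVs. The Fgr probes gave log2 ratios of 0.22 and 0.18, or 1.16-fold and 1.14-fold higher, with overlapping errors. By the brightest probes Fgr had the highest ratio of the 9, and 9.32% of all genes and 16.6% of those under a mean signal of 200 had a higher one.

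Lck, whose kinase starts signaling at the T cell receptor, was well above background by both of its probes. The brighter had 1130 ± 113 with CML EVs and 1212 ± 121 with control EVs, a log2 ratio of -0.10. The dimmer had 78.8 ± 8.37 with CML EVs and 75.9 ± 8.07 with control EVs, a log2 ratio of 0.05. The probes of Lck differed in sign, the errors of each overlapped between the arrays, and no direction is given. Of 18 marker genes of T and NK cells, 8 were well above background on both arrays, 4 on 1 array and 6 on neither. Cd8a had 3.20 with CML EVs and 3.22 with control EVs and Cd3g 3.18 with CML EVs and 3.72 with control EVs, neither well above background. Cd3e, however, had 136 with CML EVs and 143 with control EVs, and Cd247, for the zeta chain of the T cell receptor complex, had 1484 with CML EVs and 1436 with control EVs. The summed signal of the list was 9990 with CML EVs and 7493 with control EVs, most of it from Nkg7 at 6850 with CML EVs and 4427 with control EVs. Of 12 B cell markers 4 were well above background on both arrays, 2 on 1 array and 6 on neither. Cd79b, for a chain of the B cell receptor complex, had 751 with CML EVs and 734 with control EVs, Vpreb1 had 195 with CML EVs and 222 with control EVs, and Cd22 had 97.4 with CML EVs and 82.0 with control EVs. Cr2, also well above background, had 30.0 with CML EVs and 40.0 with control EVs. Ms4a1, for CD20, had 2.95 with CML EVs and 2.81 with control EVs and was not well above background. Blk, a SRC family gene of B cells, was also not well above background on either array, at 2.90 with CML EVs and 2.76 with control EVs.

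Many markers of granulocytes differed between the cultures. The myeloid genes Lyn, at a log2 ratio of 0.04, and Fgr, at 0.22 and 0.18 by its probes, lay within 1.2-fold. So did 4 of 10 measured late neutrophil markers, namely S100a9 at 0.23, Retnlg at 0.22, and Mmp8 and Cxcr2, both at -0.09. All 8 early neutrophil markers were at least 1.2-fold higher with CML EVs, with a median log2 ratio of 0.87 and a summed signal of 430206 with CML EVs and 324498 with control EVs. Of 10 measured late neutrophil markers 6 were at least 1.2-fold higher, and their list had a median of 0.60 and a summed signal of 317923 with CML EVs and 241778 with control EVs. Over 12 measured monocyte and macrophage markers the median was 0.07, with 3 at least 1.2-fold higher. Their summed signal was 86106 with CML EVs and 65833 with control EVs, with Ly6c2 as its largest part at 47021 with CML EVs and 30081 with control EVs. Vcam1, at a log2 ratio of 1.17, and F13a1, at 0.27, were also at least 1.2-fold higher, and Csf1r had 10782 with CML EVs and 10425 with control EVs. Other markers were lower with CML EVs, as were Src, Fyn and Abl2. All 8 megakaryocyte and platelet markers had lower signals, 4 of them by at least 1.2-fold, with a median log2 ratio of -0.29 and a summed signal of 68924 with CML EVs and 75911 with control EVs. Of 14 measured stem and progenitor cell markers 13 had lower signals, 2 of them by at least 1.2-fold, with a median of -0.10 and a summed signal of 51109 with CML EVs and 56115 with control EVs. The part of these markers in the ratios of the 9 genes was not tested. In bulk RNA, fewer cells of a type and less RNA per cell cannot be told apart.

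**Figure D2:**
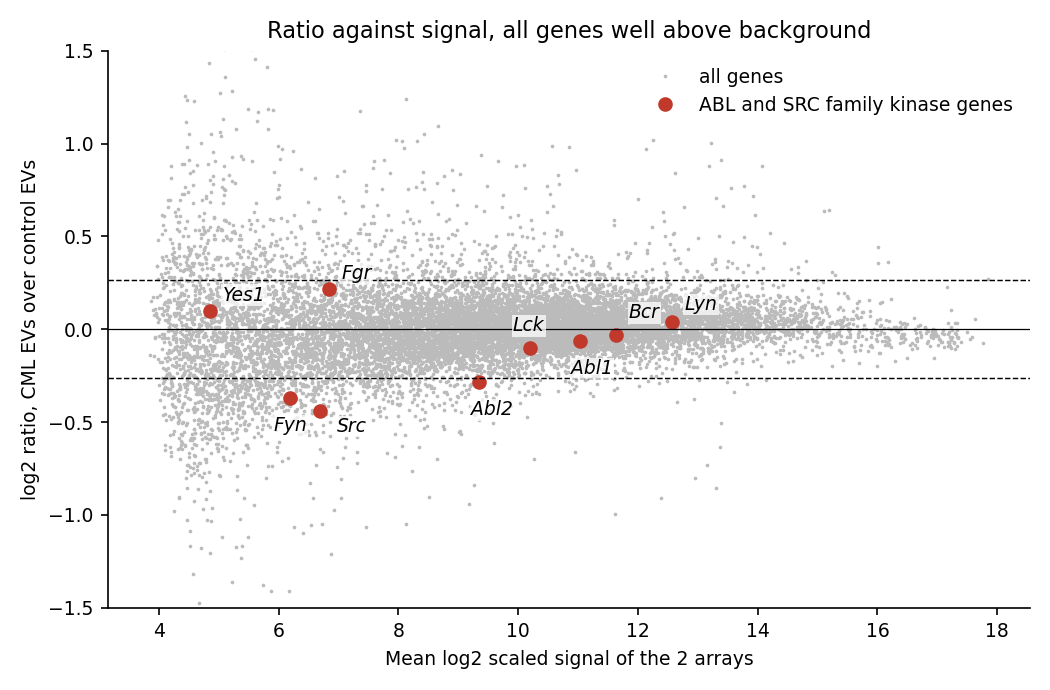
Ratio (log2, CML EVs over control EVs) plotted over brightness (log2 scaled signal averaged over both arrays), 1 grey point for each of 13411 genes well above background on both and red points for the 9 kinase genes. Dashed lines mark 1.2-fold, and 24 genes lie beyond the vertical axis. Src, Fyn and Abl2 lie below the lower line, and the grey cloud widens toward dim signals.

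Many genes shared these ratios. Within 0.05 of the log2 ratio of Src lay 204 other genes, within 0.05 of Fyn 320 and within 0.05 of Abl2 557, and for Lyn there were 3911. With 2 arrays a ratio is all that 2 genes can share, so that no gene is named as following a kinase.

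Other genes of ABL and SRC signaling, listed by role, mostly lay within 1.2-fold as well. All 105 had a probe, and 99 passed the background criterion on both arrays. Their median log2 ratio was 0.01. At least 1.2-fold higher were 4 (4.04%) and at least 1.2-fold lower 5 (5.05%), beside 6.96% and 7.52% of all genes. The other 90 lay within 1.2-fold. Such shares depend on brightness. Under a mean signal of 200, 13.4% of genes were higher and 20.7% lower by 1.2-fold, and over 2000 these shares were 3.41% and 0.717%. The network list was not matched to all genes in brightness, so that no trait of the network is read from its shares. The SRC-related kinase genes Blk, Frk, Srms and Ptk6 were not well above background on either array. Of 15 measured regulators of SRC family kinases, 10 were higher and 5 lower, with a median of 0.05. Csk, the inhibitory kinase, had 1400 ± 140 with CML EVs and 1510 ± 151 with control EVs. Its probes gave log2 ratios of -0.11 and -0.16, with overlapping errors. Ptprc, which encodes CD45, had 4315 with CML EVs and 4229 with control EVs. The regulator farthest from 0 was Sla2, for an adaptor that dampens antigen receptor signals, with 510 with CML EVs and 650 with control EVs, or 1.28-fold lower. Ptpn22, for a phosphatase of lymphocyte signaling, was 1.18-fold higher and Ptpn12, also for a phosphatase, 1.17-fold lower.

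For 20 measured adaptors and partners of ABL kinases the median log2 ratio was 0.02. Crkl, for the adaptor whose phosphorylation is read as BCR-ABL activity in the clinic, had 1533 with CML EVs and 1509 with control EVs, and Grb2, which links BCR-ABL to RAS, had 5143 with CML EVs and 5229 with control EVs. Gab1, for a docking protein, had a log2 ratio of 0.38 at signals of only 22.3 with CML EVs and 17.1 with control EVs. Pstpip1, a cytoskeletal adaptor of blood cells, was 1.16-fold higher. Rin1, for an activator of ABL kinases, was well above background with control EVs only, at 11.3 with CML EVs and 15.5 with control EVs.

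For the 32 downstream genes, all measured, the median was -0.03, and 21 were lower and 11 higher. Pik3ca, for a catalytic subunit of PI3 kinase, was the only one past 1.2-fold, at 277 with CML EVs and 390 with control EVs or 1.41-fold lower. Myc had 3255 with CML EVs and 3883 with control EVs, a log2 ratio of -0.25, and another probe gave -0.08. Rac2, for a small GTPase of blood cells, had 13299 with CML EVs and 11283 with control EVs, or 1.18-fold higher. Stat5a and Stat5b, for the transcription factors through which BCR-ABL acts, had log2 ratios of -0.19 and 0.01, and another probe of Stat5a gave 0.07.

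Among 31 measured genes of immunoreceptor and integrin signaling the median was 0.01, with 3 at least 1.2-fold higher and 2 lower. Blnk, for an adaptor of B cell receptor signaling, had 184 with CML EVs and 138 with control EVs, or 1.33-fold higher. Itgb2 and Zap70, which are named because they passed 1.2-fold, were 1.23-fold and 1.26-fold higher, Zap70 at signals of only 25.9 with CML EVs and 20.5 with control EVs. Cttn, for cortactin, a substrate of SRC and ABL kinases at the actin cortex, had 646 with CML EVs and 876 with control EVs and was 1.36-fold lower, but one of its other probes had a log2 ratio of 0.14. Ptk2, for focal adhesion kinase, a partner of SRC, was 1.34-fold lower at 32.0 with CML EVs and 42.9 with control EVs. The receptor-proximal kinase genes Syk and Btk had log2 ratios of 0.09 and 0.06.

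**Figure D3:**
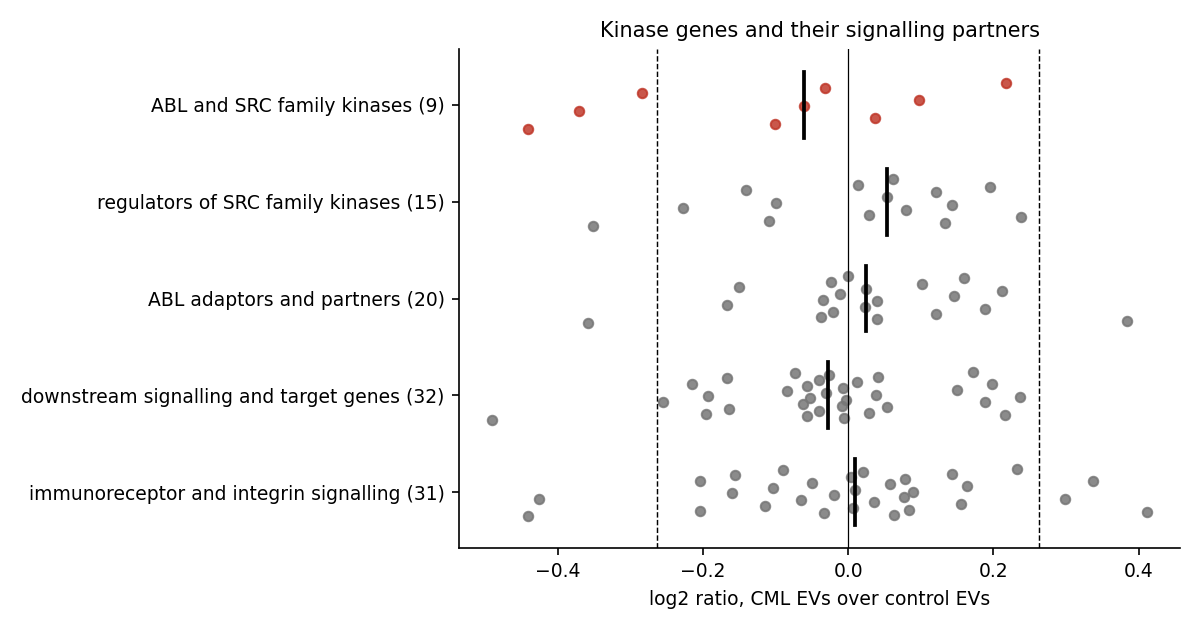
Ratio (log2, CML EVs over control EVs) of the 9 kinase genes (red) and of 98 other genes of their signaling (grey), in the 4 roles with at least 2 measured genes, 1 point a gene, with the number measured in parentheses and black bars at the medians. Dashed lines mark 1.2-fold. Medians lie between -0.06 and 0.05.

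Src stayed at least 1.2-fold lower under all 10 alternatives that give a ratio for each gene, between -0.44 and -0.30. Its ratio did not change at all with the deposited values or kept outlier spots. The choice of probe could not change it, since its dimmer probe was not well above background on both arrays. Fyn lay between -0.37 and -0.22 and came within 1.2-fold with normexp background correction. Abl2 lay between -0.29 and -0.21 and came within 1.2-fold with median scaling and with normexp. Abl1 went as low as -0.43 with the mean of its probes, which gives the dim probe equal weight, and up to 0.01 with median scaling. Fgr ranged between 0.09 and 0.29 and passed 1.2-fold with median scaling only.

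**Figure D4:**
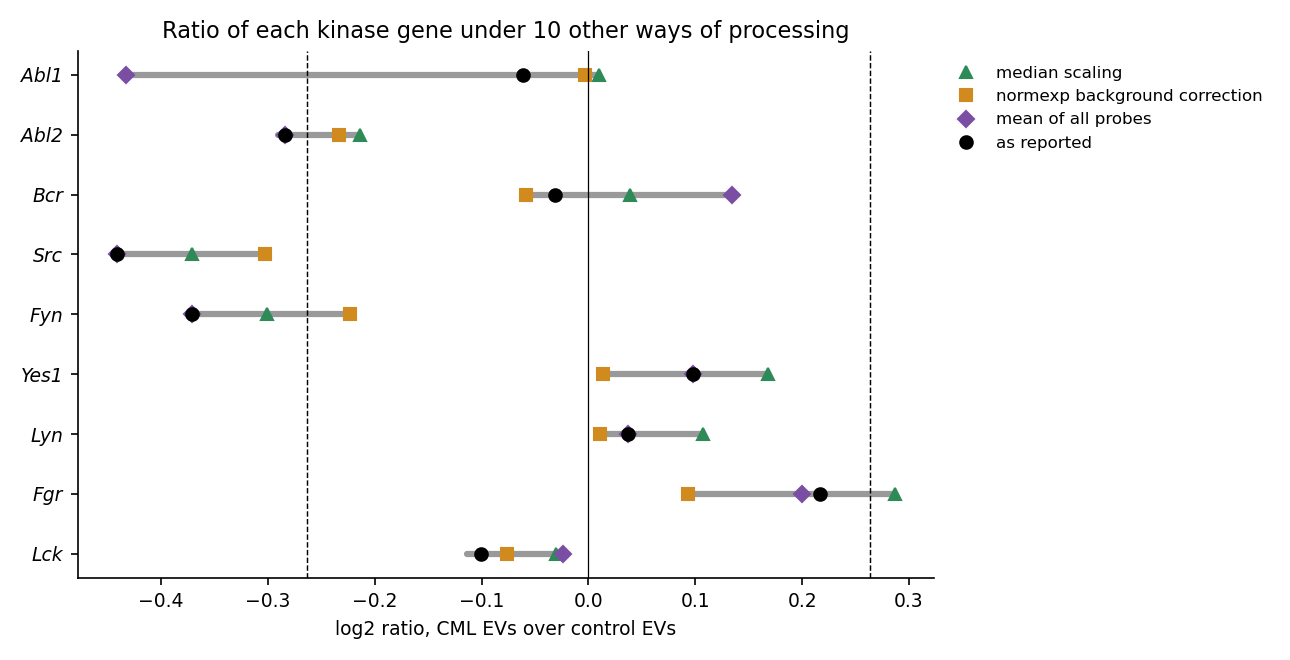
Ratio (log2, CML EVs over control EVs) of each kinase gene as reported (black circles) and its range over 10 other ways of processing (grey lines), of which 3 are marked by shape. Dashed lines mark 1.2-fold. Src stays beyond the lower line throughout, whereas Abl1 and Bcr have ranges on both sides of 0.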

How the data were processed

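The study hybridized RNA of 2 cultures to 1-colour Agilent mouse arrays, 1 per condition. The authors' scanner files hold a background-subtracted intensity of each spot, from Agilent Feature Extraction 12.0.3.1 per the labels. In the value table that the authors deposited, this intensity is multiplied by a constant for each array (0.947 for CML EVs and 0.942 for control EVs) and no log is taken. Control spots and outlier spots (88 with CML EVs and 95 with control EVs) were left out, arrays were scaled to a trimmed mean of 2500 after the methods, and log2 values were taken. RefSeq accessions named 32994 probes, and 23610 stayed unnamed. Of several probes the one brightest with CML EVs was used after the methods. This can favor higher ratios, so every probe named for the 9 genes is given. Whether an unnamed probe also reads them was not checked.

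The members and gene lists were chosen with earlier results of these data known. Named genes were the 9, Blk and Csk, the 3 network genes farthest from 0 in each of 5 roles, and markers of the cells and of cell types known for a member, and a few genes that this rule names are not reported here. Further network genes (Frk, Srms, Ptk6, Ptprc, Crkl, Grb2, Rin1, Stat5a, Stat5b, Syk, Btk, Itgam, Itgb2 and Zap70) were named after their values were seen. The ratio step was tested on simulated spots, with known ratios larger than those of the 9 genes by their brightest probes. These were put only on genes brighter than Src, Fyn, Yes1 and Fgr, so that the test does not cover small differences of dim genes. No test across samples was possible. Alternatives covered scaling, normexp (limma 3.58.1, offset 50), deposited values, probe choice, outlier spots, the fold and the filter on dim probes. Software was R 4.3.3 and Python 3.11.15 with pandas 2.3.3 and numpy 2.4.6. The number of arrays limits the precision.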

Additional observations from a re-analysis of the deposited data

How the results depend on the processing

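No paired analysis was possible because there was a single array for each group. Of 90 ratios of the 9 genes under 10 alternatives, 81 moved by less than the spread between spots and 9 by more. None of the 3 genes past 1.2-fold changed sign. Many of the 90 did not move at all, so that these counts overstate stability. The deposited values and kept outlier spots gave all 9 genes the ratios reported above. The choice of probe could not change the ratios of Src, Fyn, Abl2, Yes1 and Lyn. Fyn, Yes1 and Lyn had only 1 probe. The other probes of Src and Abl2 were dimmer and not well above background on both arrays, so that they never entered. Abl1 had a log2 ratio of 0.0095 with median scaling, and Bcr had 0.039 under median scaling and 0.13 from the mean of its probes, both of the opposite sign. With median scaling the medians of the kinase genes and of the network list were 0.0095 and 0.076 in place of -0.061 and 0.0061. This setting raised the median of all genes by 0.07, so that 1 kinase gene (Fgr) was at least 1.2-fold higher and 2 were lower. Of all genes 1475 were then higher and 662 lower, in place of 933 and 1009, or 69.0% of these calls higher in place of 48.0%. With normexp, which adds an offset to every signal, 1 kinase gene (Src) was at least 1.2-fold lower, and 500 of all genes were higher and 335 lower, or 59.9% higher. At 1.5-fold 0 kinase genes were lower, and 204 of all genes were higher and 158 lower. With only genes brighter than the median gene, at a mean signal of 702, 246 of all genes were at least 1.2-fold higher and 67 lower, or 78.6% higher. Src, Fyn and Abl2 are dimmer than this and were left out. That 0 kinase genes were at least 1.2-fold lower under this setting was therefore fixed by the filter. Without a filter on dim probes 2564 of all genes were higher and 2864 lower. The causes of these changes were not tested, and the normexp setting also differed in the spot signal that it started from.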

Other observations

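Markers of further cell types were read for the same 2 cultures. Eosinophil markers had a median log2 ratio of 0.66 over 5 measured genes, of which 4 were at least 1.2-fold higher with CML EVs. Mast cell and basophil markers had a median of 0.06 over 8 genes, erythroid markers 0.11 over 6 and dendritic cell markers -0.01 over 5. B cell markers had a median of -0.08 over 4 genes and T and NK cell markers 0.06 over 8. Of 7 markers of spleen stroma and endothelium, 1 was well above background on both arrays, at a log2 ratio of 0.46.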
